A study of Homo sapiens with 9 samples.

Results

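The genes described here are 10 protein-coding genes, MN1, CYTL1, ZNF423, RFTN1, SLC1A3, PCBP3, CTNNA2, TENM2, ADAMTS9 and NNMT, taken from the 58237 annotated genes measured in H358 cells. They were chosen from a list because their read counts were near 0 in parental cells and raised in cells without the chromatin remodeller BRG1. All 10 were found in the files by symbol, and all 10 passed the filter on low counts, which 18205 genes passed. Of these, 8 passed it only through the BRG1 knockout libraries, where they were high, while TENM2 and ADAMTS9 also passed it in the BRM knockout and parental libraries alone. Because BRG1 knockout against Parental was the contrast that chose them, their values in it are given as a description, with no test.

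H358 is an established human non-small cell lung carcinoma line of epithelial character. RNA-seq libraries were made from total RNA of cells grown in RPMI medium with serum, in 3 groups of 3. The groups were H358 with a CRISPR knockout of SMARCA4, the gene of BRG1, H358 with a CRISPR knockout of SMARCA2, the gene of BRM, and the Parental line. No treatment, guide site, clone or pool is given in the sources used here, and no control line that went through editing is named. Effects of editing, clonal selection and culture therefore cannot be told apart from those of the lost gene. The replicates are numbered, with nothing on whether they were separate cultures, so the p-values below measure the spread between these libraries, which may be technical.

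Each SWI/SNF (BAF) complex carries BRG1 or BRM as its motor subunit. These complexes use ATP to slide and evict nucleosomes and so open or close promoters and enhancers. Loss of the motor subunits is known in lung carcinoma, where SMARCA4 is often mutated. SWI/SNF acts in opposition to Polycomb complexes at many developmental genes, and several of the 10 genes are best known from brain, cartilage or connective tissue and not from lung epithelium.

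The libraries held between 31969961 and 40679073 estimated reads. SMARCA4 was at 21.2 to 23.9 counts per 1e6 reads (CPM, scaled by the TMM method) in the BRG1 knockout, against 212 to 244 CPM in parental cells. SMARCA2 was at 9.36 to 12.0 CPM in the BRM knockout, against 49.3 to 58.0 CPM in parental cells. BRG1 knockout replicate 3 stood apart from its group, as parental replicate 1 and BRM knockout replicate 2 did from theirs by smaller distances. The chi-square per degree of freedom over genes was 125 and 189 between BRG1 knockout replicate 3 and its partners, against 53.4 between replicates 1 and 2. Between parental replicate 1 and its partners it was 59.8 and 47.9, against 10.7 between parental replicates 2 and 3. For BRM knockout replicate 2 and its partners it was 67.1 and 46.5, against 22.6 between BRM knockout replicates 1 and 3. Summed TPM (a level per transcript length, scaled to the same total in every library) of 6 lung epithelial markers was 428 to 897 in the BRG1 knockout, 4648 to 5343 in the BRM knockout and 5138 to 5302 in parental cells. Of those markers 5 fell and 1 was not called in the BRG1 knockout. Summed TPM of 9 fibroblast markers was 132 to 354 in the BRG1 knockout, 47.7 to 65.8 in the BRM knockout and 22.9 to 45.9 in parental cells, and 5 of the 7 that could be tested rose in the BRG1 knockout. In bulk RNA a change in the share of cells that make a transcript and a change per cell cannot be told apart.

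Promoter sequence of 4 of the genes is shown because most of their reads lay on transcripts that start within 60 bases of a RefSeq start site. RefSeq windows of 300 bases, 250 before to 50 after a start on GRCh38.p14, were at hand for CYTL1, ZNF423, RFTN1, SLC1A3, CTNNA2 and TENM2, and none was used for MN1, PCBP3, ADAMTS9 and NNMT. Only the stretch outside annotated exons is printed, 5′ to 3′ on the gene's own strand, and capitals mark matches to the GC box GGGCGG on either strand.
CYTL1 (chr4:5019473-5019708, minus strand): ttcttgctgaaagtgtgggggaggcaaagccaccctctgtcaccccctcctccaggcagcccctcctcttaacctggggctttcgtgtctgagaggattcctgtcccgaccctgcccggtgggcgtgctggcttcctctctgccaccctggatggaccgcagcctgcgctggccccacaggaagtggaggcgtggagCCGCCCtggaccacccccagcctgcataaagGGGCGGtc
RFTN1 (chr3:16513707-16513822, minus strand): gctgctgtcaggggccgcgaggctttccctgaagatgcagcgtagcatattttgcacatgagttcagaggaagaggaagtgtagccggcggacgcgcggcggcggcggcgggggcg
CTNNA2 (chr2:79512801-79512999, plus strand): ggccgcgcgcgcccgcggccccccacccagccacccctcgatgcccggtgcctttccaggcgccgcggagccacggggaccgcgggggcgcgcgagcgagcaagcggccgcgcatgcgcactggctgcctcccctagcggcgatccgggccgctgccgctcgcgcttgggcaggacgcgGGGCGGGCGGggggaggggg
TENM2 (chr5:167754679-167754935, plus strand): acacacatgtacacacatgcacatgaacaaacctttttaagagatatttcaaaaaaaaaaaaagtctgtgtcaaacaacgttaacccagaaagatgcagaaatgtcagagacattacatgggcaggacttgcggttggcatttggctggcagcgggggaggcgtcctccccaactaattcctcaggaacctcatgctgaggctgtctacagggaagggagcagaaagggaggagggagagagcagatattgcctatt

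The 4 promoters differed in base composition. In the 300-base windows, G and C made up 80.0% of CTNNA2, 72.7% of RFTN1, 67.7% of CYTL1 and 47.3% of TENM2, against a median of 58.7% over 35116 RefSeq windows. The ratio of CpG pairs observed to those expected from the C and G content, which is high in CpG islands, was 1.01 for RFTN1 and 0.897 for CTNNA2. It was 0.410 for CYTL1 and 0.240 for TENM2, against a median of 0.579 over all windows. The window nearest to the main SLC1A3 transcript had a ratio of 0.50 and lay inside that transcript's first exon. For ZNF423 the window nearest to transcript ZNF423-202 had a ratio of 0.452. Its other window had a ratio of 0.743, and the leading ZNF423 transcript differed between libraries, as given below. These windows thus spanned the CpG-rich and the CpG-poor kind of promoter.

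On both strands of the whole windows nearest the leading transcripts, the GC box GGGCGG was found at 2 places in CYTL1, 2 in RFTN1 and 3 in CTNNA2, and 45.0% of all windows hold it. The core of the antioxidant response element, TGACNNNGC, was found once each in RFTN1, where it overlaps a GC box, in SLC1A3 and in TENM2, and 13.3% of all windows hold it. The TEAD site GGAATG was found once, in SLC1A3 (14% of all windows). The AP-1 site TGACTCA (4.95% of all windows), the E-box CACCTG (20.6%) and the TATA box TATAAA (11.5%) were not found in these windows. Farther RefSeq windows of these genes held 1 AP-1 site and 1 GC box in SLC1A3 and 1 TATA box in CTNNA2. In TENM2 the farther window held 2 TATA boxes, 1 TEAD site and 1 antioxidant response element core. A match is a run of letters and not a bound site, and sites outside the RefSeq windows were not searched.

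All 10 genes lay far above both other groups in the BRG1 knockout, and for each of them the lowest BRG1 knockout library was above the highest of the other 6. Mean levels in the BRG1 knockout ran from 8.43 CPM for TENM2 to 105 CPM for MN1, against at most 0.226 CPM in the BRM knockout and at most 0.630 CPM in parental cells. By the test that chose them all 10 were higher in the BRG1 knockout than in parental cells, a contrast in which 21.6% of the 18205 genes tested rose, and nothing is read from that count. Beside the knockout of the other ATPase all 10 were again higher in the BRG1 knockout. In that contrast 45.3% of genes were called, 21.6% as higher, and it shares the BRG1 knockout libraries with the choice. Fold changes below are ratios of depth-scaled reads summed over a group, with 95% intervals that cover counting error only. Against a group without a read the fold is a lower bound that puts 3 reads in that group.

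**Figure D1:**
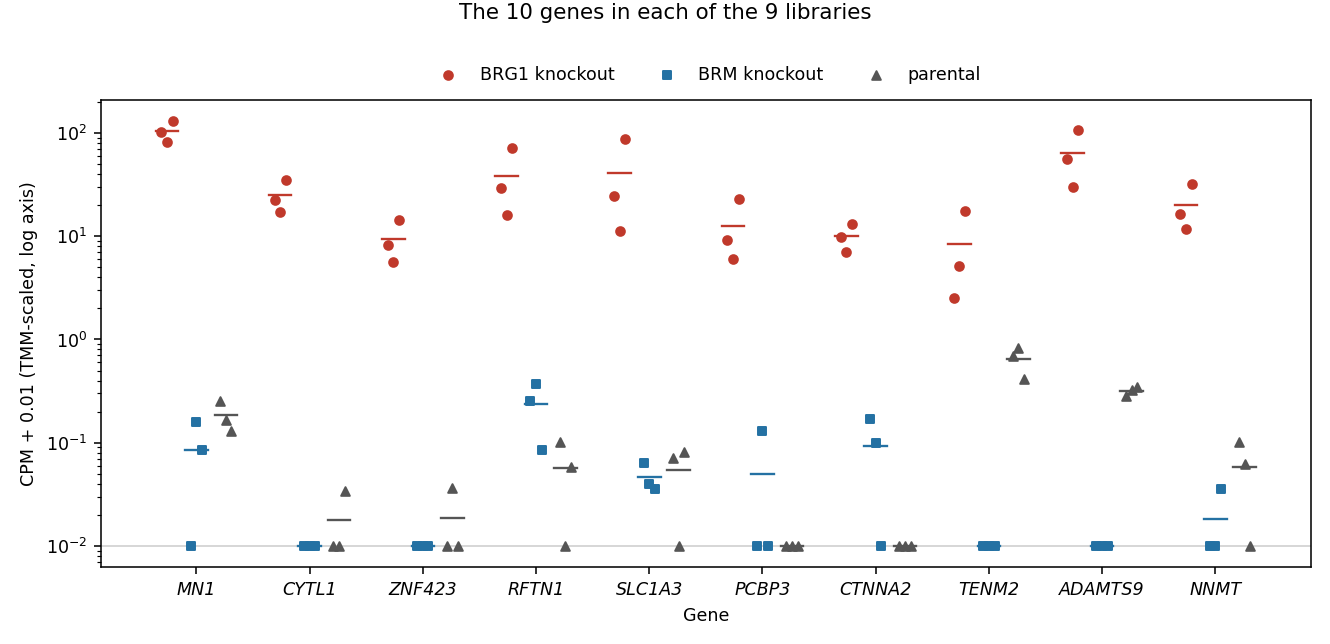
Level of each gene in each library, as TMM-scaled CPM plus 0.01 on a log axis, for BRG1 knockout (red circles), BRM knockout (blue squares) and parental cells (grey triangles). Short lines are group means and the grey line is 0 reads; every red circle lies above every other symbol of its gene.

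The first genes regulate transcription or bind RNA. MN1, a transcriptional coregulator first found at a chromosome break in meningioma and fused to ETV6 in some leukaemias, was the most abundant of the 10 by reads. It had 3603, 3072 and 4710 reads in the BRG1 knockout libraries, 0, 5 and 3 in the BRM knockout, and 8, 6 and 5 in parental cells. The BRG1 knockout libraries lay within 1.61-fold of each other, the closest agreement among the 10 genes. MN1 (ENSG00000169184.5, hg38 chromosome 22, 27748277 to 27801498, minus strand) was 618-fold higher in the BRG1 knockout than in parental cells (interval 396 to 1027), a log2 change of 9.24 ± 0.43 (approximate SE, n = 3 per group). Its few parental reads were in all 3 libraries.

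ZNF423, a zinc-finger transcription factor that partners EBF factors and SMAD proteins of BMP signalling, was close to the lower end of the group. It had 288, 214 and 522 reads in the BRG1 knockout, 0 in each BRM knockout library, and 0, 1 and 0 in parental cells. ZNF423 (ENSG00000102935.11, chromosome 16, 49487524 to 49857919, minus strand) reached 9.42 ± 4.53 CPM (SD, n = 3), and the ratio to the single parental read was 1057 (interval 189 to 41771). PCBP3, a poly(C)-binding protein of the KH-domain family, had 325, 226 and 821 reads in the BRG1 knockout. In the BRM knockout it had 0, 4 and 0 reads, and no read in any parental library. PCBP3 (ENSG00000183570.16, chromosome 21, 45643694 to 45942454, plus strand) averaged 12.6 ± 8.89 CPM in the BRG1 knockout and was at least 472-fold higher than in parental cells. Without BRG1 knockout replicate 3 the mean was 7.59 CPM. For both genes the reads outside the BRG1 knockout lay in a single library, and without parental replicate 2 ZNF423 had no parental read left.

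The next genes act at the membrane and at cell contacts. RFTN1 encodes raftlin, a lipid raft protein studied in B-cell receptor signalling. It had 1019, 612 and 2555 reads in the BRG1 knockout, 9, 12 and 3 in the BRM knockout, and 3, 0 and 2 in parental cells. RFTN1 (ENSG00000131378.13, chromosome 3, 16313574 to 16514026, minus strand) was the gene with the most reads in the BRM knockout, 24 in all. Its ratio of BRG1 knockout to parental reads was 864 (interval 370 to 2662), and that of BRG1 to BRM knockout reads was 175 (interval 118 to 274). Without BRG1 knockout replicate 3 its mean was 22.5 CPM, against 38.6 CPM with it.

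SLC1A3, the glutamate transporter GLAST best known from astrocytes, was the gene whose BRG1 knockout libraries differed most. It had 868, 428 and 3182 reads there, 2, 1 and 1 in the BRM knockout, and 2, 0 and 3 in parental cells. The highest BRG1 knockout library was 7.82 times the lowest in CPM, and the mean was 41.3 ± 41.0 CPM, or 18.0 CPM without replicate 3. SLC1A3 (ENSG00000079215.13, chromosome 5, 36606355 to 36688334, plus strand) was 924-fold higher than in parental cells (interval 396 to 2847). Markers of astrocytes, the cell type it is best known from, summed to 3.05 to 9.65 TPM in the BRG1 knockout, 11.5 to 17.0 TPM in the BRM knockout and 5.85 to 9.17 TPM in parental cells, and none of the 3 that could be tested was called in the BRG1 knockout.

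CTNNA2, the neuronal alpha-catenin that links cadherins to actin, had 342, 264 and 475 reads in the BRG1 knockout. It had 6, 3 and 0 reads in the BRM knockout and none in any parental library. CTNNA2 (ENSG00000066032.18, chromosome 2, 79185231 to 80648861, plus strand) averaged 9.94 ± 3.10 CPM in the BRG1 knockout and was at least 372-fold higher than in parental cells. Its ratio of BRG1 to BRM knockout reads was 121 (interval 63.4 to 265), the smallest of the 10 genes among ratios to a group with reads.

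TENM2 encodes a teneurin, a large transmembrane protein that binds latrophilins across neuronal contacts. It had 88, 193 and 640 reads in the BRG1 knockout, 0 in each BRM knockout library, and 22, 31 and 17 in parental cells, where it was the least close to 0 of the 10 genes. Its ratio of BRG1 knockout to parental reads was 13.6 (interval 10.6 to 17.6), by far the smallest. TENM2 (ENSG00000145934.16, chromosome 5, 167284799 to 168264157, plus strand) averaged 8.43 ± 8.14 CPM in the BRG1 knockout, and 3.79 CPM without replicate 3. The log2 change of 3.74 ± 0.74 was 2.53 without that library. TENM2 was thus detected in every parental library, as MN1 and ADAMTS9 also were. With the highest parental level of the 10 and the smallest ratio, TENM2 is described less well by "switched on" than the other 9.

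CYTL1 and ADAMTS9 encode secreted proteins. CYTL1, a small cytokine-like protein made in cartilage, had 790, 656 and 1262 reads in the BRG1 knockout, 0 in each BRM knockout library, and 0, 0 and 1 in parental cells. CYTL1 (ENSG00000170891.10, chromosome 4, 5014586 to 5019472, minus strand) averaged 24.9 ± 9.07 CPM in the BRG1 knockout. The ratio to the single parental read, which was in replicate 3, was 2794 (interval 501 to 110399), and against the BRM knockout it was at least 908-fold higher. ADAMTS9, a metalloprotease that cleaves the proteoglycans aggrecan and versican, had 1974, 1136 and 3852 reads in the BRG1 knockout, 0 in each BRM knockout library, and 9, 12 and 14 in parental cells. ADAMTS9 (ENSG00000163638.13, chromosome 3, 64515654 to 64688000, minus strand) averaged 64.2 ± 39.0 CPM in the BRG1 knockout. It was 205-fold higher than in parental cells (interval 147 to 295) and at least 2335-fold higher than in the BRM knockout.

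The last gene is metabolic. NNMT, the enzyme that methylates nicotinamide with S-adenosylmethionine as the methyl donor, had 580, 446 and 1151 reads in the BRG1 knockout, 0, 0 and 1 in the BRM knockout, and 3, 2 and 0 in parental cells. NNMT (ENSG00000166741.7, chromosome 11, 114257787 to 114313285, plus strand) averaged 20.02 ± 10.5 CPM in the BRG1 knockout, 449-fold above parental cells (interval 192 to 1385). On 5 parental reads the log2 change of 8.70 ± 0.67 was 9.46 without parental replicate 1 and 8.07 without parental replicate 3.

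Per transcript length the order of the 10 genes was another one. CYTL1, a short transcript, led with 45.0 ± 23.3 TPM in the BRG1 knockout (SD, n = 3), more than 83.8% of the genes tested. NNMT followed with 27.2 ± 17.8 TPM, then SLC1A3 with 19.4 ± 21.2, RFTN1 with 19.2 ± 16.2, MN1 with 18.2 ± 6.63 and ADAMTS9 with 16.3 ± 5.62 TPM. PCBP3 was at 10.6 ± 8.94 TPM, and the median gene was at 7.75 TPM. CTNNA2 with 3.70 ± 1.60, ZNF423 with 3.00 ± 1.88 and TENM2 with 1.27 ± 1.38 TPM were below it. The ranges of neighbours in this order overlapped in all 9 pairs, so the order of neighbours does not stand out from the spread between libraries.

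The 3 BRG1 knockout libraries were not alike. All 10 genes were highest in replicate 3, while 44.0% of the 10516 genes with at least 8 CPM in this group were. The order of replicate 3, then 1, then 2 held for 9 of the 10, against 30.0% of those genes, and TENM2 was the exception, with replicate 1 lowest. Replicate 3 over the mean of replicates 1 and 2 was 1.42 for MN1, 2.48 for ADAMTS9 and 4.90 for SLC1A3, with a median of 2.37 over the 10 genes and 1.02 over all genes of that level. The other 34 genes that went from near 0 to at least 8 CPM, described further on, were highest in replicate 3 in 19 cases.

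Other measures moved with that library. Summed epithelial markers were at 671, 897 and 428 TPM in BRG1 knockout replicates 1, 2 and 3, and summed fibroblast markers at 148, 132 and 354 TPM. In the fibroblast sum COL3A1 alone was at 21.2, 22.6 and 216 TPM in those replicates. The other fibroblast markers went both ways, with PDGFRB at 9.55, 4.98 and 19.3 TPM and LUM at 20.1, 17.0 and 3.95 TPM. Genes of ribosomal proteins held 9.57%, 10.1% and 5.42% of the reads in the same order. Their part in the levels of the 10 genes was not tested. Without BRG1 knockout replicate 3 all 10 genes were still higher than in parental cells, with MN1 at 102 and 80.8 CPM in the remaining libraries and SLC1A3 at 24.7 and 11.3 CPM. The log2 change was then 8.48 for SLC1A3, against 9.76 ± 1.03 with it, 8.81 for RFTN1, against 9.65 ± 0.87, and 7.03 for ADAMTS9, against 7.68 ± 0.57.

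**Figure D2:**
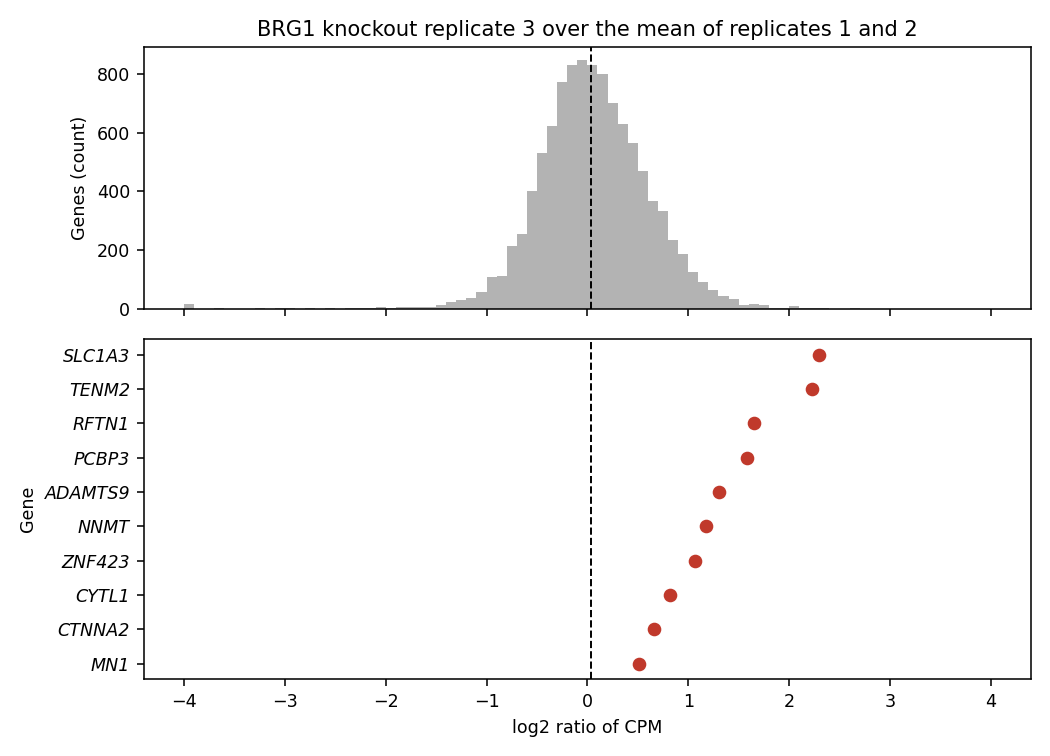
Ratio of BRG1 knockout replicate 3 to the mean of replicates 1 and 2 on a log2 scale, for all genes with at least 8 CPM in this group (top, number of genes per bin, values beyond 4 drawn at 4) and for the 10 genes (bottom). The dashed line is the median of all genes; all 10 genes lie to the right of it, from MN1 at a ratio of 1.42 to SLC1A3 at 4.90.

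The BRM knockout libraries had no part in the choice of the genes, although the parental ones did. With the 6 BRM knockout and parental libraries alone, 2 of the 10 genes passed the filter on low counts, TENM2 and ADAMTS9, and both fell in the BRM knockout (edgeR quasi-likelihood test, two-sided, Benjamini-Hochberg adjustment over all genes tested, threshold 0.05). In that fit of 6 libraries 8389 of 17425 genes were called, 4137 as higher and 4252 as lower. In the fit of all 9 libraries 37.4% of all genes were called in this comparison, 21.0% as higher and 16.4% as lower. TENM2 had 0 reads in the BRM knockout, against 70 in parental cells, and was at least 22.8-fold lower (edgeR adjusted p = 0.0078 in the fit of all libraries). ADAMTS9 had 0 reads, against 35 in parental cells, and was at least 11.4-fold lower (edgeR adjusted p = 0.013 in the same fit). Both genes, higher in the BRG1 knockout, were thus below the parental level in the BRM knockout in 3 of 3 libraries.

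The other 8 genes were in that fit only because the BRG1 knockout libraries carried them past the filter, so their values are given with no call read from them. CTNNA2 had 9 reads in the BRM knockout, from 2 of 3 libraries, against 0 in parental cells, at least 3.08-fold higher. Its edgeR adjusted p was 0.0496 in the fit of all libraries, and 11 of the 16 other settings that gave it a value put it above the threshold. Among them, leaving out any 1 library other than BRG1 knockout replicate 3 or BRM knockout replicate 3 gave an edgeR adjusted p of 0.059 to 0.147. RFTN1 had 24 reads in the BRM knockout and 5 in parental cells, a ratio of 4.92 (interval 1.84 to 16.5). MN1 had 8 reads in the BRM knockout and 19 in parental cells, a ratio of 0.432 (interval 0.164 to 1.03).

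The remaining genes gave too few reads to show a change. SLC1A3 had 4 reads in the BRM knockout and 5 in parental cells, and NNMT had 1 and 5. The 4 PCBP3 reads of the BRM knockout were all in replicate 2, where parental cells had none. CYTL1 and ZNF423 had 0 reads in the BRM knockout and 1 in parental cells, at or under the 3 reads taken as the floor for a group. The highest value of any of the 10 genes in a BRM knockout library was 0.361 CPM, for RFTN1.

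**Figure D3:**
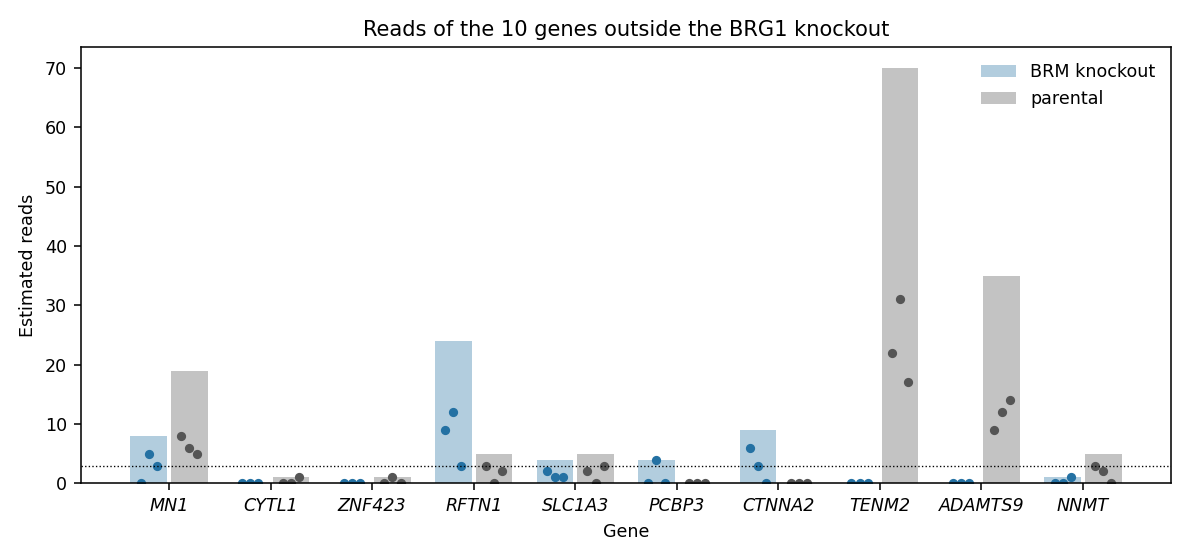
Estimated reads of the 10 genes in the BRM knockout (blue) and in parental cells (grey), as single libraries (points) and as the sum of 3 libraries (bars), with the floor of 3 reads dotted. TENM2 and ADAMTS9 have 70 and 35 parental reads and none in the BRM knockout.

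Transcripts were read next, as Salmon's split of reads among annotated transcripts, which is an estimate where transcripts share exons. For 8 of the 10 genes a single transcript held most reads of the BRG1 knockout and led in all 3 libraries. MN1-201 held 100% of the MN1 reads and CYTL1-201 held 99.3% of those of CYTL1. RFTN1-201 held 91.2%, SLC1A3-201 held 90.0%, CTNNA2-214 held 88.2%, ADAMTS9-210 held 79.9%, TENM2-205 held 79.0% and NNMT-201 held 78.3%. CTNNA2-218 held 10.3% of the CTNNA2 reads and TENM2-207, which starts 67 bases downstream of TENM2-205, held 21.0% of those of TENM2. For CYTL1, RFTN1, CTNNA2 and TENM2 the leading ones are the transcripts that begin beside the sequences printed above. CTNNA2-214 and TENM2-205 start inside the annotated span of their genes, and SLC1A3-201 at its outer end.

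ZNF423 and PCBP3 used several annotated starts. ZNF423-202 held 42.7%, 86.0% and 0% of the ZNF423 reads in BRG1 knockout replicates 1, 2 and 3, and ZNF423-201, which held 57.1% in replicate 3, held none in the other 2. ZNF423-206 and ZNF423-205 held 29.1% and 10.5% over the 3 libraries. PCBP3 reads were split over PCBP3-206, PCBP3-204 and PCBP3-202, with 41.8%, 33.9% and 17.9%, whose 5′ ends lie at 45643694, 45849961 and 45896270 on chromosome 21. PCBP3-204 led in replicates 1 and 2 and PCBP3-206 in replicate 3. Neither gene therefore had a leading transcript that the 3 libraries shared.

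**Figure D4:**
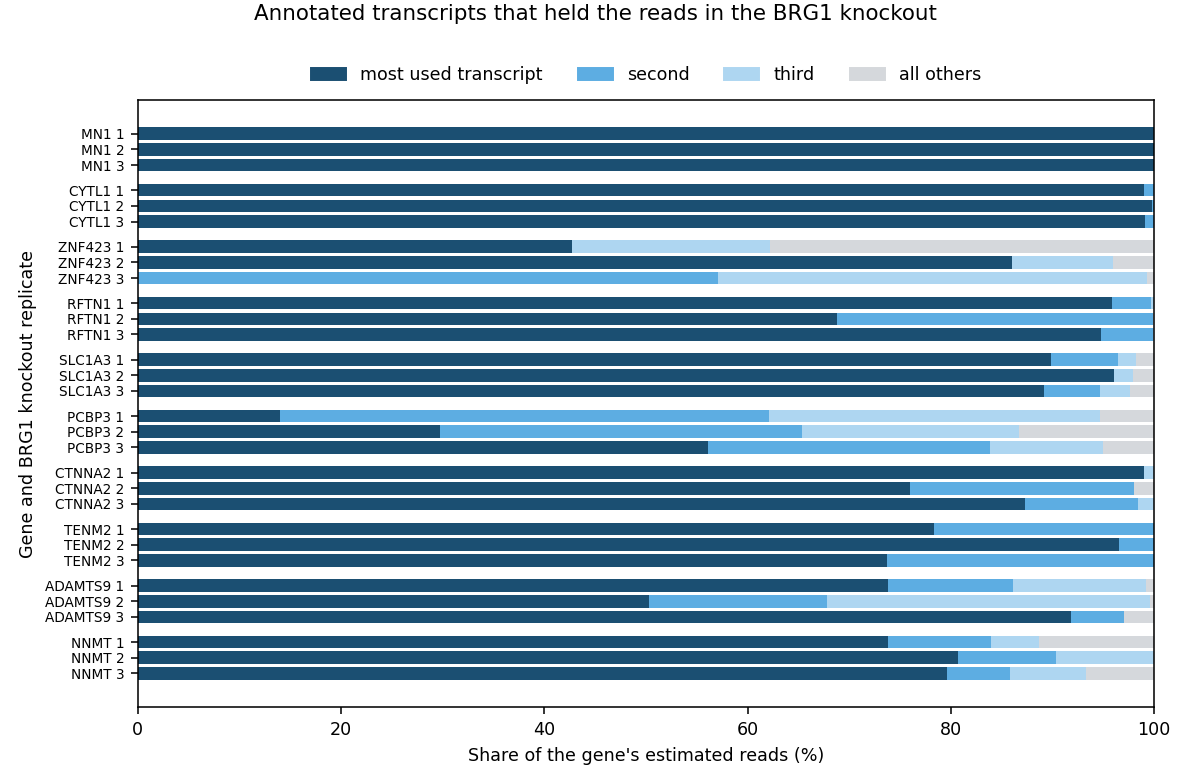
Share of each gene's estimated reads held by the transcripts most used over the 3 libraries, in order of use, and by all others (dark to light), one bar per BRG1 knockout replicate. The dark part leads in every bar except those of ZNF423 replicate 3 and PCBP3 replicates 1 and 2.

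Where reads remained outside the BRG1 knockout, they did not always lie on the same transcript. All 5 parental RFTN1 reads and 22.6 of the 24 in the BRM knockout were assigned to RFTN1-203, which starts 30841 bases downstream of RFTN1-201. In the BRG1 knockout RFTN1-203 held 39.0, 190 and 131 reads, and RFTN1-201 held 977, 421 and 2420. Parental TENM2 reads were split between TENM2-205, with 43.1, and TENM2-203, with 25.1, which starts 470 kb upstream and held no read in the BRG1 knockout. Of the TENM2-203 reads 23.1 were in parental replicate 2, against 0 and 2.0 in replicates 1 and 3, so that split rests on 1 library. SLC1A3-201 and NNMT-201, the leading transcripts of their genes, held no read in the BRM knockout or in parental cells. All 35 parental reads of ADAMTS9 were on ADAMTS9-210, the transcript that led in the BRG1 knockout. ADAMTS9-206, a retained intron, held 259, 362 and 0 reads in BRG1 knockout replicates 1, 2 and 3.

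Most tested neighbours on the chromosome did not rise with the 10 genes. Genes that overlap one of the 10, together with the nearest protein-coding gene on either side, came to 61, of which 15 passed the filter. Of these 5 rose and 1 fell in the BRG1 knockout and 9 were not called, 40.0% called against 43.5% of all genes, with a median log2 change of 0.30 against -0.01. By direction 33.3% of the 15 rose and 6.67% fell, where 21.6% of all genes rose and 21.9% fell. Without BRG1 knockout replicate 3 the split was 4 higher and 3 lower. Of the same 15 genes 1 rose and 1 fell in the BRM knockout, 13.3% called against 37.4% of all genes.

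LRRTM1, a leucine-rich synaptic adhesion gene that lies within CTNNA2 on the opposite strand, was the neighbour that changed most. It had 86, 36 and 108 reads in the BRG1 knockout and none in any BRM knockout or parental library, and was at least 79.1-fold higher than in parental cells (log2 9.30, edgeR adjusted p = 0.0006). The sources do not state whether counting used strand, so reads of LRRTM1 and CTNNA2 may not be fully told apart. PRICKLE2, a planar cell polarity gene 70.2 kb from ADAMTS9, rose by 2.34 ± 0.32 on the log2 scale (edgeR adjusted p = 0.00023). COL6A1, a collagen VI chain 39.3 kb from PCBP3, rose by 1.24 ± 0.25 (edgeR adjusted p = 0.0022). CNEP1R1, next to ZNF423, rose by 1.23 ± 0.17 (edgeR adjusted p = 0.00021), and also by 0.52 ± 0.17 in the BRM knockout (edgeR adjusted p = 0.030). PITPNB, next to MN1, was called at 0.39 ± 0.14 (edgeR adjusted p = 0.039), which was lost under 12 of the 17 other settings, 0.28 without BRG1 knockout replicate 3 and 0.30 without parental replicate 1 among them.

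WWC1, a Hippo pathway scaffold 27.5 kb from TENM2, fell by 1.09 ± 0.17 in the BRG1 knockout (edgeR adjusted p = 0.00054), while TENM2 was raised. MSX1, a homeobox gene 151 kb from CYTL1, had 139 reads in the BRG1 knockout and 119 in parental cells and was not called (log2 0.23, edgeR adjusted p = 0.79). MSX1 had 5 reads in the BRM knockout, against the same 119, and fell by 4.44 ± 0.86 (edgeR adjusted p = 0.0027). OXNAD1, which overlaps RFTN1 on the opposite strand, held 1037 reads in the BRG1 knockout, 1032 in the BRM knockout and 1125 in parental cells and was not called in either comparison. Below the filter, RANBP3L beside SLC1A3 had 20, 9 and 124 reads in the BRG1 knockout, 0, 0 and 2 in the BRM knockout and 1, 0 and 2 in parental cells. AC008957.3, a gene of the annotation's type TEC within SLC1A3 on its strand, had 8, 4 and 119 reads in the BRG1 knockout and 0 in all others, and its reads may be those of SLC1A3.

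Genes tied to the 10 by family, function or tissue were then counted, in lists of 118 genes, 93 of which could be tested. In the BRG1 knockout 32 rose, 21 fell and 40 were not called, 57.0% called against 43.5% of all genes, with a median log2 change of 0.32 against -0.01. The same 93 genes gave 28 rises and 20 falls in the BRM knockout, 51.6% called against 37.4% of all genes, so a share above that of all genes was seen in both knockouts. Over all genes 21.6% rose and 21.9% fell in the BRG1 knockout, and 21.0% rose and 16.4% fell in the BRM knockout. Lists around the 10 genes went in different directions, and no set test was run.

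Cartilage genes, listed for CYTL1, were mostly higher where they could be tested. Of 14 tested 9 rose, 0 fell and 5 were not called, with a median of 2.20, where 21.6% of all genes rose and 21.9% fell. Of the 18 genes listed, COL9A1 and ACAN had 0 reads in the BRG1 knockout and COL11A1 had 0 in the BRM knockout. Every gene of that list had reads in parental cells. MATN2, a matrilin of cartilage and other matrix, had 2092, 3785 and 3030 reads in the BRG1 knockout and 144, 56 and 92 in parental cells, a log2 rise of 4.92 ± 0.39 (edgeR adjusted p = 7.9e-06). COL9A2, a chain of collagen IX, rose by 3.26 ± 0.31 (edgeR adjusted p = 2.3e-05). COL11A2, a chain of collagen XI, rose by 2.36 ± 0.27, and MATN3, another matrilin, by 2.34 ± 0.39. HAPLN1, the link protein that holds aggrecan to hyaluronan, rose by 3.50 ± 0.58. Against the same parental libraries 3 of the 14 rose in the BRM knockout, MATN2 by 1.37 ± 0.35 among them, 2 fell and 9 were not called. HAPLN1 fell by 4.30 ± 1.00 there.

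In the list for ZNF423, of its paralogue, EBF factors and BMP-responsive genes, 4 of 8 tested genes rose and 0 fell. The shares over all genes were 21.6% and 21.9%. EBF4, a member of the EBF family, had 186, 183 and 185 reads in the BRG1 knockout, 35, 39 and 27 in the BRM knockout, and 4, 1 and 6 in parental cells. It rose by 5.65 ± 0.47 in the BRG1 knockout and by 3.21 ± 0.47 in the BRM knockout (edgeR adjusted p = 9.1e-06 and 0.0006). The BMP-responsive genes ID2, ID3 and SMAD6, which restrain differentiation factors or SMAD signalling, rose by 2.01 ± 0.47, 2.13 ± 0.43 and 0.71 ± 0.18 in the BRG1 knockout. ID2 and ID3 were not called in the BRM knockout, at -0.53 and -0.96, and SMAD6 fell there by 1.07 ± 0.18. The SMAD6 rise was 0.42 without BRG1 knockout replicate 1 and not called (edgeR adjusted p = 0.056). The retinoid receptors and coactivators listed for MN1 gave 0 rises among 10 tested, with 3 genes lower and 7 not called. Beside 21.6% of all genes higher and 21.9% lower, nothing is read from so small a count. RARG, a retinoic acid receptor, fell by 1.45 ± 0.23 (edgeR adjusted p = 0.00062), NCOA3 by 1.06 ± 0.29 and EP300 by 0.84 ± 0.29. The EP300 call was lost without any 1 of the 3 parental libraries, BRG1 knockout replicate 1 or BRM knockout replicate 3, at -0.75 to -0.92.

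Of 6 tested RNA-binding relatives of PCBP3, 3 rose, 1 fell and 2 were not called, where 21.6% of all genes rose and 21.9% fell. PCBP1 was at 237 TPM in the BRG1 knockout, 317 TPM in the BRM knockout and 366 TPM in parental cells, and fell by 0.46 ± 0.13 in the BRG1 knockout. PCBP2 was at 702 TPM in the BRG1 knockout and 709 TPM in parental cells and was not called, so both relatives were far more abundant than PCBP3 in every group. PCBP4 rose by 2.11 ± 0.16 in the BRG1 knockout, with 47.4 TPM against 13.8 TPM in parental cells (edgeR adjusted p = 6.1e-06). NOVA1, a neuronal splicing regulator, rose by 1.29 ± 0.16 in the BRG1 knockout and by 0.87 ± 0.16 in the BRM knockout. Alpha-catenins and junction partners, listed for CTNNA2, gave 0 rises and 4 falls among 7 tested, where 21.6% of all genes rose and 21.9% fell. CTNNA1, the epithelial alpha-catenin, was at 127 TPM in the BRG1 knockout and 274 TPM in parental cells and fell by 0.95 ± 0.15 (edgeR adjusted p = 0.00065). JUP, plakoglobin of desmosomes, fell by 2.70 ± 0.49, AFDN by 1.08 ± 0.18 and CTNND1 by 0.61 ± 0.17. CTNNA2 itself, at 3.70 ± 1.60 TPM, stayed far below the level of CTNNA1 in the same libraries. Summed epithelial markers were lower in the same libraries, as given above, and their part in these falls was not tested.

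Among raft and caveola proteins, listed for RFTN1, 3 of 8 rose, 1 fell and 4 were not called. Over all genes the shares were 21.6% higher and 21.9% lower. CAVIN1, a coat protein of caveolae, rose by 2.56 ± 0.36 in the BRG1 knockout, EHD2 by 1.91 ± 0.19 and FLOT2 by 0.68 ± 0.15, while CAVIN3 fell by 1.75 ± 0.33. EHD2 and FLOT2 rose in the BRM knockout as well, by 1.57 ± 0.19 and 1.40 ± 0.15, where CAVIN1 was not called. Teneurins and their latrophilin and FLRT partners, listed for TENM2, gave 4 rises and 2 falls among 9 in the BRG1 knockout. The shares of all genes were again 21.6% and 21.9%. TENM3 rose by 1.73 ± 0.31, the latrophilins ADGRL3 and ADGRL2 rose by 2.95 ± 0.38 and 1.43 ± 0.19, and FLRT2 rose by 2.06 ± 0.37. TENM4 went the other way, with 0, 0 and 1 reads in the BRG1 knockout, 386, 344 and 471 in the BRM knockout and 411, 348 and 443 in parental cells. None (0) of these 9 genes rose in the BRM knockout, where 21.0% of all genes did, and 5 fell, where 16.4% of all genes did, TENM3 by 1.46 ± 0.31, ADGRL3 by 1.36 ± 0.38 and FLRT2 by 1.94 ± 0.38 among them.

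Glutamate genes listed for SLC1A3 divided: of 8 tested 3 rose and 5 fell in the BRG1 knockout, where 21.6% of all genes rose and 21.9% fell. In the BRM knockout 7 of the 8 rose, 0 fell and 1 was not called, where 21.0% of all genes rose. SLC1A1, the glutamate transporter of epithelia, had 42, 49 and 10 reads in the BRG1 knockout, 1917, 1956 and 2395 in the BRM knockout, and 964, 576 and 822 in parental cells. It fell by 4.53 ± 0.44 in the BRG1 knockout (edgeR adjusted p = 3.2e-05) and rose by 1.41 ± 0.37 in the BRM knockout (edgeR adjusted p = 0.012). The neutral amino acid transporters SLC1A4 and SLC1A5 rose in both, by 1.75 ± 0.31 and 0.65 ± 0.18 in the BRG1 knockout and by 2.16 ± 0.31 and 0.74 ± 0.18 in the BRM knockout. The BRG1 value of SLC1A5 was 0.62 without parental replicate 2 and not called (edgeR adjusted p = 0.054). Of the enzymes, GLS2, a glutaminase, fell by 2.34 ± 0.52 in the BRG1 knockout, with a log2 change of -3.25 without BRG1 knockout replicate 1, and rose by 1.69 ± 0.46 in the BRM knockout. GLUD1, glutamate dehydrogenase, fell by 1.09 ± 0.17 in the BRG1 knockout and GLUL, glutamine synthetase, by 1.40 ± 0.45. GLUL was at -0.75 and not called without parental replicate 1 (edgeR adjusted p = 0.107), and its call was also lost without BRG1 knockout replicate 1 or 2, at -1.50 and -1.16. GLUL rose by 2.93 ± 0.47 in the BRM knockout, and the direct test of BRG1 against BRM knockout gave -4.33 ± 0.50 (edgeR adjusted p = 9.5e-05).

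ADAMTS proteases gave 4 rises and 1 fall among 11 tested, where 21.6% of all genes rose and 21.9% fell. ADAMTS10, a protease of fibrillin microfibrils, had 1176, 986 and 781 reads in the BRG1 knockout, 9, 6 and 0 in the BRM knockout, and 4, 10 and 7 in parental cells. It rose by 7.16 ± 0.55 (edgeR adjusted p = 5.7e-06), a profile like that of ADAMTS9, though replicate 3 was its lowest BRG1 knockout library. ADAMTS13 and ADAMTS6 rose by 2.05 ± 0.44 and 1.42 ± 0.29 in the BRG1 knockout and by 2.00 ± 0.44 and 1.29 ± 0.29 in the BRM knockout.

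Of 12 tested genes that handle nicotinamide, the substrate of NNMT, or its methyl donor, 2 rose, 4 fell and 6 were not called. Among all genes 21.6% rose and 21.9% fell. NAMPT, which salvages nicotinamide, was at 27.2 TPM in the BRG1 knockout, 179 TPM in the BRM knockout and 100 TPM in parental cells, and fell by 1.33 ± 0.16 in the BRG1 knockout (edgeR adjusted p = 7.9e-05). NAPRT, which starts from nicotinic acid, fell by 1.45 ± 0.17, and NMNAT2, a nicotinamide mononucleotide adenylyltransferase, by 2.26 ± 0.30. NMNAT1, its nuclear relative, rose by 0.70 ± 0.15. AOX1, aldehyde oxidase, which oxidises the product of NNMT, fell by 2.42 ± 0.61. NAMPT, NAPRT and NMNAT2 rose in the BRM knockout, by 0.73 ± 0.15, 1.07 ± 0.17 and 1.85 ± 0.29, and AOX1 fell there by 5.57 ± 0.79. The direct test of BRG1 against BRM knockout gave -2.06 ± 0.16 for NAMPT (edgeR adjusted p = 3.7e-06).

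**Figure D5:**
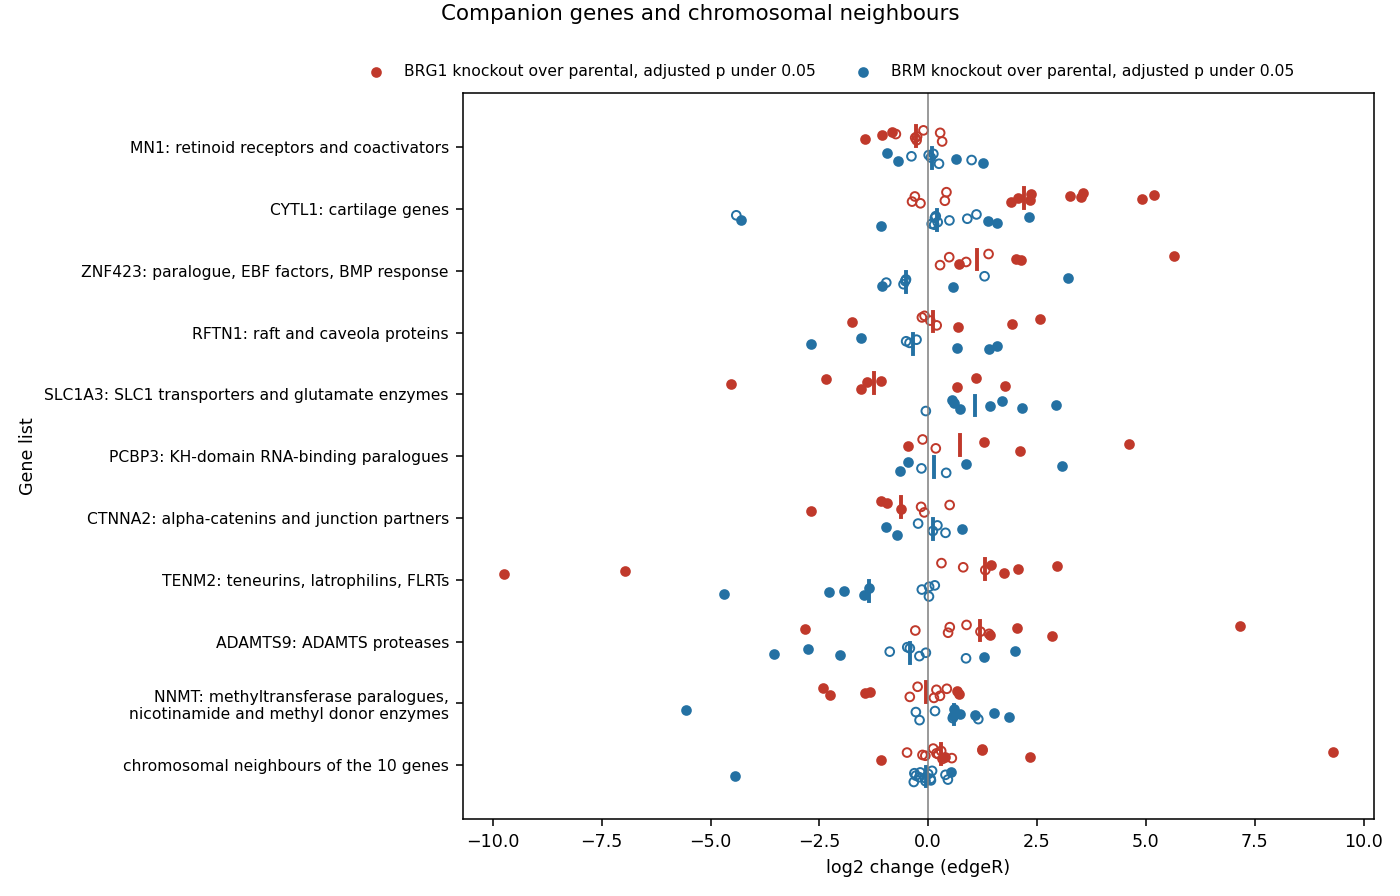
Log2 change of each tested gene of the lists named for the 10 genes, and of their chromosomal neighbours, in the BRG1 knockout (red) and the BRM knockout (blue), each over parental cells. Filled points have an edgeR adjusted p under 0.05, open points do not, and bars are list medians; the cartilage list has a BRG1 median of 2.20 and the glutamate list one of -1.24.

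Few genes in the data had a profile like the one by which the 10 genes were chosen. A mean of at most 0.5 CPM in parental cells and at least 8 CPM in the BRG1 knockout was met by 43 genes, 42 of them protein-coding, or 0.236% of those tested. They include 9 of the 10 genes, and TENM2 was outside, with 0.630 CPM in parental cells. These limits use the libraries that chose the 10 genes, so that count and the ranks below are a description only. By level in the BRG1 knockout IGFBP5, an insulin-like growth factor binding protein, was first with 190 CPM. MN1 was the second of the 43, ADAMTS9 the fourth, SLC1A3 the eighth and RFTN1 the ninth, while CYTL1, NNMT, PCBP3, CTNNA2 and ZNF423 had ranks 13, 15, 25, 34 and 38. Of the 43, 30 were at most at 0.5 CPM in the BRM knockout, 9 reached 1 CPM and 0 reached 8 CPM. With the BRM knockout in the place of the BRG1 knockout the same limits were met by 4 of the 18205 genes tested.

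The genes whose profile was most like the mean log2 CPM of the 10 were found by Pearson's r over the 9 libraries, which share 3 groups, so a high r says mainly that a gene separates the BRG1 knockout from the rest. PODXL, the sialomucin podocalyxin, came first with r = 0.998. It had 3651, 3248 and 4976 reads in the BRG1 knockout, 77, 70 and 63 in the BRM knockout, and 79, 99 and 97 in parental cells. KDELC1, CBLN2, SYNPO, NPY2R, CMKLR1, DNAJB5, COL14A1, C10orf90 and IGFBP5 followed, down to r = 0.994. CBLN2, a secreted synaptic organiser, had 97, 59 and 176 reads in the BRG1 knockout and 0 in all other libraries. NPY2R, a neuropeptide Y receptor, had 149, 139 and 514 in the BRG1 knockout, 0 in the BRM knockout, and 0, 1 and 0 in parental cells. IGFBP5 had 4056, 3237 and 13322 in the BRG1 knockout, 14, 14 and 16 in the BRM knockout, and 17, 17 and 8 in parental cells.

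Markers of other cell types were read beside these profiles. Neuronal markers summed to 107 to 170 TPM in the BRG1 knockout, 172 to 265 TPM in the BRM knockout and 150 to 231 TPM in parental cells, and of 4 tested 1 rose and 1 fell in the BRG1 knockout, with ELAVL4 at 0 in all 9 libraries. Blood markers summed to 1.45 to 2.24 TPM in the BRG1 knockout, 2.65 to 4.66 TPM in the BRM knockout and 2.47 to 3.42 TPM in parental cells, with CD3E at 0 in the BRG1 knockout. Endothelial markers summed to 0.928 to 1.26 TPM in the BRG1 knockout, 12.8 to 18.6 TPM in the BRM knockout and 1.76 to 2.63 TPM in parental cells. The part of any such cells in the levels of the 10 genes was not tested.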

How the data were processed

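The deposited files hold, for each of the 9 libraries, estimated counts (NumReads) and TPM per transcript, both made by the authors with Salmon, as the submitters' processing notes name it and per the file headers. Those notes also name DESeq2 and hg38. No source used here gives tool versions, transcript annotation, library type or strand setting. The difference between length and effective length was constant in each library, so the deposited TPM carry no sequence or GC bias correction of length.

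Of 203835 transcripts, 203746 were assigned to a GENCODE release 29 gene. The other 89 held at most 0.0193% of a library and were left out. Counts were summed per gene, rounded and tested in edgeR 4.0.16 (R 4.3.3): filterByExpr by group kept 18205 genes, TMM factors scaled libraries, and 1 glmQLFit model (robust) of all 9 libraries had 6 residual degrees of freedom and a common biological coefficient of variation of 0.253. Each comparison used the two-sided quasi-likelihood F test, Benjamini-Hochberg over all genes tested, threshold 0.05. The SE is approximate, the log2 change divided by the square root of F. The fit was tested on counts simulated with a smaller spread than these libraries had. Of 50 changed genes each, it recovered 100% of 4-fold and 78% of 2-fold rises. It recovered 96% of 4-fold and 66% of 2-fold falls. DESeq2 1.42.0 was among 17 alternative settings, described in the closing section. TPM were summed per gene. Promoter windows come from RefSeq (GRCh38.p14) and gene coordinates from GENCODE 29 on hg38.

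The 10 genes and all lists were chosen with earlier results of these data known. Named genes are the 10 genes, SMARCA4, SMARCA2, transcripts with at least 10% of a gene's reads, tested neighbours, called list members of at least 1 TPM in a group, and the 10 protein-coding genes most like the mean profile. Smaller transcripts, untested neighbours and other genes were named after their values were seen. The values of 1 gene of the lists are not reported here.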

Additional observations from a re-analysis of the deposited data

How the results depend on the processing

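Each result was recomputed under 17 other settings. Some were DESeq2 size factors, library totals, the DESeq2 test, and no filter and a stricter filter on low counts. Others were a fit of the 6 libraries of a comparison, a replicate block, and each library left out in turn. In the last, BRG1 knockout replicate 3 and parental replicate 1 were left out together, while BRM knockout replicate 2, which also stood apart, was kept. Of the 10 genes, 2 or 3 had an adjusted p under 0.05 in BRM knockout against parental cells, although 8 of the 10 had passed the filter only through the BRG1 knockout libraries. TENM2 was called under all 17 and ADAMTS9 under 16, the exception being no filter (log2 -6.59, edgeR adjusted p = 0.061), where 31790 genes were tested in place of 18205. CTNNA2, one of the 8, was under the threshold in 5 settings of the 16 that gave it a value, with edgeR or DESeq2 adjusted p from 0.0084 to 0.147. SLC1A3 in the BRM knockout, at -0.26 on the log2 scale, was reversed at 0.32 without parental replicate 3, with a range of -0.83 to 0.32 over all libraries left out in turn, and was not called in any. PCBP3 had no read left there without BRM knockout replicate 2, and gives no value. In the fit of the 6 BRM and parental libraries TENM2 and ADAMTS9 alone of the 10 passed the filter.

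Genes called numbered 4540 to 8214 in BRM knockout against parental cells with 1 library left out (6805 with all), 6150 to 8905 in BRG1 knockout against parental cells (7914) and 6480 to 9009 between the knockouts (8252). The neighbours called numbered 5 to 9 over all settings (6 in the main result). Their split was 4 higher and 3 lower without BRG1 knockout replicate 3, against 5 and 1. Among list genes named above, ID2, SMAD6, SLC1A5, GLUL and EP300 lost their call under at least 1 setting, EP300 under 6, and the ID2 call was lost with no filter alone.

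Replicates with the same number showed little shared deviation. The correlation of their deviations from the group means was -0.079 to 0.175 over 9 pairs, with 1 over 0.1. Nothing is stated on whether the numbers pair the libraries, and these values do not settle it. With the replicate number as a block, 7486 genes were called in BRG1 knockout against parental cells, 6392 in BRM knockout against parental cells and 7802 between the knockouts. Of the 10 genes, 2 were then called in the BRM knockout, as were 5 of the neighbours in the BRG1 knockout and 55 of the list genes, against 53 without the block. CYTL1, ZNF423, PCBP3, NNMT and SLC1A3 had at most 5 reads in either group of BRM knockout against parental cells, which limits what this depth can show for them.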
